A study of Mus musculus with 96 samples.

Results

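Expression of the Cyp3a drug-metabolizing enzymes and of their shared reductase Por was followed in hepatocytes and liver macrophages of mice lacking hepatocyte REV-ERBs, with or without SCAP. The genes were chosen by name: Cyp3a11, Cyp3a13, Cyp3a16, Cyp3a25, Cyp3a41a, Cyp3a44, Cyp3a59 and Por, 8 of the 25095 gene symbols measured. They include 7 of the 9 Cyp3a symbols; the other two, Cyp3a41b and Cyp3a57, stayed at or below 5.55 RPKTM in every library. RPKTM is the deposited unit, an RPKM (reads scaled to transcript length and library total) multiplied by 10 and quantile normalized. Of several transcripts of a gene, the one with the highest mean was used.

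Per the labels, 96 RNA-Seq libraries came from male C57BL/6J mice fed a diet rich in fat and sucrose (D12492i) for 4 weeks. Control mice had received the AAV-TBG-GFP virus, and the deletions were made with AAV-TBG-CRE, whose TBG promoter is active in hepatocytes; the virus was given at 8 weeks of age. RevDKO mice (label ReverbhDKO) lacked Nr1d1 and Nr1d2, which encode REV-ERBα and REV-ERBβ, nuclear receptors that repress clock genes; RevScapTKO mice (label Reverb/ScaphTKO) also lacked Scap, and ScapKO mice lacked Scap alone. Hepatocytes and liver macrophages (LMs) were taken at ZT4, ZT10, ZT16 and ZT22 (hours after lights on, in 12 hours of light and 12 hours of dark), with 3 libraries for each of 32 groups of genotype, cell type and time. In the LM libraries the macrophages themselves were not the target of the virus. The ScapKO libraries were normalized as tables of their own without a Control, so their values are set beside the others only as a description. The titles of the ScapKO hepatocyte libraries were followed where the cell type field named macrophages.

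CYP3A enzymes are cytochromes P450 of the endoplasmic reticulum that oxidize many drugs, steroids and bile acids, and in liver they are best known as inducible targets of the xenobiotic receptors PXR (Nr1i2) and CAR (Nr1i3). NADPH-cytochrome P450 reductase, the product of Por, passes electrons from NADPH to all microsomal P450s, so that a single reductase serves the whole enzyme family. Cytochrome b5 and its reductase form an additional electron route, and every P450 needs heme.

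All 8 genes lay on chromosome 5 of mm9, at these transcript positions. Cyp3a11 spanned chr5:146666183-146691430 on the minus strand, Cyp3a25 chr5:146788770-146821193 on the minus strand, and Cyp3a59 chr5:146890834-146924859 on the plus strand. Cyp3a16 (chr5:146197178-146230592), Cyp3a41a (chr5:146505624-146531712) and Cyp3a44 (chr5:146585559-146617450), all on the minus strand, lay in the same cluster. Cyp3a13 (chr5:138334161-138362847, minus strand) and Por (chr5:136165015-136211196, plus strand) lay apart from it. Because the Cyp3a genes are near copies of each other, reads can be shared between them. Of all windows of 50 bases in the Cyp3a11 transcript, 14.7% occurred in another Cyp3a transcript; the share was 26.8% for Cyp3a25, 28.3% for Cyp3a59, 98.6% for Cyp3a41a, and 0% for Cyp3a13 and Por. Coding sequences of Cyp3a25 and Cyp3a59 were 97.5% identical, those of Cyp3a11 and Cyp3a41a 95.2%, and those of Cyp3a11 and Cyp3a13 77.1%. How reads that match several genes were counted was not given in the sources used here. Cyp3a25 and Cyp3a59, and Cyp3a41a with Cyp3a41b, are therefore uncertain as separate genes. Cyp3a13 and Por shared no window with the other transcripts compared, and sequence outside these transcripts was not searched. The first 90 coding bases (GENCODE vM1 transcripts of mm9, 5′ to 3′) are shown because they make this likeness visible; capitals mark positions where the base is not the one Cyp3a11 has.
Cyp3a11: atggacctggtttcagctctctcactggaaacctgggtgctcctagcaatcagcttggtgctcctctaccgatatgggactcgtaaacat
Cyp3a41a: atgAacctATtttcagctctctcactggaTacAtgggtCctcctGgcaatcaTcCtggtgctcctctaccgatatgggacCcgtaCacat
Cyp3a25: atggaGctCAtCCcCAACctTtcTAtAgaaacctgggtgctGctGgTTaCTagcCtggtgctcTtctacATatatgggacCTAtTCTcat
Cyp3a59: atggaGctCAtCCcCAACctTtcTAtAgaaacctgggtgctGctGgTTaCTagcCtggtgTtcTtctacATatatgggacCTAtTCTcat
Cyp3a13: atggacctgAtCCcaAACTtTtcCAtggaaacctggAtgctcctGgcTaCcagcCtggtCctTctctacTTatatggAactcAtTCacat
In these 90 bases Cyp3a41a had 11 capitals, Cyp3a13 23, Cyp3a25 29 and Cyp3a59 30, and the stretches of Cyp3a25 and Cyp3a59 are nearly the same.

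The 250 bases before the transcript start are shown for Cyp3a11, whose levels differed most between genotypes, and for the pair Cyp3a25 and Cyp3a59 (mm9, 5′ to 3′ on the gene's strand; chr5:146691431-146691680, chr5:146821194-146821443 and chr5:146890584-146890833). Capitals mark the hexamer AGGTCA or AGTTCA on either strand, the core of nuclear receptor sites, and TAGGTCA, which holds the same hexamer.
Cyp3a11: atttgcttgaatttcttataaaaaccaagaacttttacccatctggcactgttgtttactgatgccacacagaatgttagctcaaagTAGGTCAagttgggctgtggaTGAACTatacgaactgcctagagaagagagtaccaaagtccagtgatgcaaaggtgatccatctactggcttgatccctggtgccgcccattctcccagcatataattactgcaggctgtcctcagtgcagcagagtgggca
Cyp3a25: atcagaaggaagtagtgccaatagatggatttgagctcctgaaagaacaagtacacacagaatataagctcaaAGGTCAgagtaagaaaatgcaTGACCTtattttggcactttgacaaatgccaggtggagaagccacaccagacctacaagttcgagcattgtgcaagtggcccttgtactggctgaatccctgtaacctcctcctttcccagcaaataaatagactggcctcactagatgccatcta
Cyp3a59: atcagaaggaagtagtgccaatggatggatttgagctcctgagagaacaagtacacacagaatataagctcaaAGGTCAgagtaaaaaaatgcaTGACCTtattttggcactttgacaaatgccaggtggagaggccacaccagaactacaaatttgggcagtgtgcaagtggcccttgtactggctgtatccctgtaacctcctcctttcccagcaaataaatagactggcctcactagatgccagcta
The Cyp3a11 window held TAGGTCA at -163 to -157 and AGTTCA on the opposite strand at -142 to -137. The windows of Cyp3a25 and Cyp3a59, 95.6% identical, each held AGGTCA at -177 to -172 and on the opposite strand at -156 to -151. Of 25016 promoter windows of this length, 21.9% held the hexamer and 2.07% held TAGGTCA, so a hexamer alone is common. Cyp3a41a and Cyp3a44 held a single hexamer each, and Cyp3a13, Cyp3a16 and Por held none. The E-box CACGTG (6.5% of windows), the D-box TTATGTAA (0.827%) and pairs of hexamers as direct repeats with 1, 3 or 4 bases between (0.064%, 0.004% and 0.00799%) or as everted repeats with 6 bases between (0.004%) were in none of the 8 windows. A match of letters is a description of the window and not of a factor's binding.

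Labels and libraries were checked first. Scap was lower in RevScapTKO than in RevDKO hepatocytes (log2 difference -1.40, limma, Benjamini-Hochberg adjusted p = 9.77e-09), and Arntl, the gene of the clock activator BMAL1 that REV-ERBs repress, was higher in RevDKO than in Control (1.83, adjusted p = 1.60e-11). The whole-transcript value of Nr1d1 was higher in RevDKO hepatocytes (1.55, adjusted p = 8.87e-05), and such a value checks nothing about a deleted stretch. Macrophage markers moved with genotype in the hepatocyte libraries: their summed level had a median of 989.5 RPKTM for Control (273.5 to 3535), 1233 for RevDKO (465.8 to 2738) and 3279 for RevScapTKO (1077 to 7047), and 14 of 14 were higher in RevScapTKO than in either other genotype (13 of 14 without the 2 libraries named below), while 0 of 14 differed between RevDKO and Control by limma (also 0 at an unadjusted p under 0.05). Of 8 stellate markers, 7 were also higher in RevScapTKO than in RevDKO, as were 4 of 8 endothelial and 1 of 2 tested cholangiocyte markers. Of 14 hepatocyte markers, 2 were higher and 3 lower in RevScapTKO than in RevDKO, and their summed medians were 670671, 585681 and 630454 in the 3 genotypes. In bulk libraries a smaller share of a cell type and less RNA per cell cannot be told apart. Replicate 2 of RevScapTKO at ZT4 and at ZT10 stood apart in Cyp3a11, and the tests of RevScapTKO were repeated without both.

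Hepatocyte Cyp3a11, the main PXR-inducible member of the family in mouse liver, was far lower in RevDKO than in Control and higher again in RevScapTKO. In Control hepatocytes it ranged from 271.9 to 4781 RPKTM with a median of 1255 (n = 12). In RevDKO it ranged from 178.3 to 386.6 with a median of 309.1, so that the highest RevDKO library lay above only 1 Control library, replicate 3 at ZT4. In RevScapTKO it ranged from 385.5 to 8405 with a median of 990.0. The Control libraries spread widely, and those of RevDKO lay close together. Averaged over the time points, RevDKO was 4.41-fold lower than Control on the log2(RPKTM + 1) scale (log2 difference -2.14 ± 0.39 SE, n = 12 per genotype, limma, Benjamini-Hochberg adjusted p = 0.000573). RevScapTKO was 4.50-fold higher than RevDKO (log2 SE 0.39, limma adjusted p = 0.000157). RevScapTKO minus Control was 0.03 ± 0.39 (adjusted p = 0.955), an error that leaves room for a difference of either sign. The comparisons share the libraries of the genotype in the middle, so they are not independent of each other.

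The levels were also read at each time point. At ZT4 the Control libraries read 1030, 2246 and 271.9 RPKTM and the RevDKO libraries 386.6, 312.7 and 208.6, which overlap. At ZT16, the early night, Control read 1267, 4781 and 2864, RevDKO 332.7, 343.4 and 286.6, and RevScapTKO 1086, 748.6 and 1089. There the 3 genotypes did not overlap, with RevDKO lowest and Control highest. At ZT10 Control read 618.1, 874.2 and 1504 against 286.8, 230.5 and 305.6 in RevDKO, and at ZT22 it read 1567, 1242 and 1102 against 333.9, 348.0 and 178.3. RevDKO libraries thus lay below every Control library at 3 of 4 time points. RevScapTKO libraries lay above every RevDKO library at 3 of 4 as well. The fitted RevDKO minus Control difference was -1.54 at ZT4, -1.77 at ZT10, -3.01 at ZT16 and -2.23 at ZT22, each ± 0.79 SE. Tested singly, no time point passed (limma adjusted p = 0.544, 0.511, 0.107 and 0.319). Nor did any for RevScapTKO minus RevDKO (lowest limma adjusted p = 0.0723, at ZT4). How many of all genes part in this way at a time point was not counted.

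**Figure D1:**
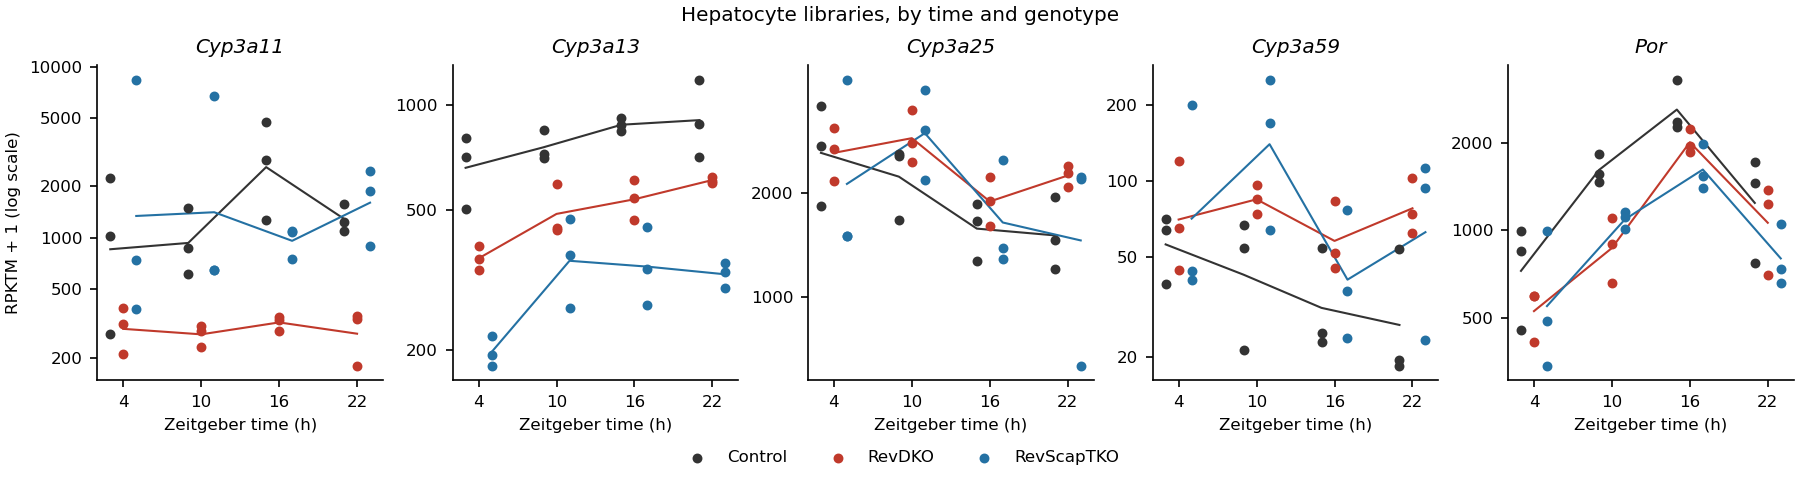
Levels of Cyp3a11, Cyp3a13, Cyp3a25, Cyp3a59 and Por in hepatocytes against zeitgeber time, on a log axis of RPKTM + 1; each point is a library, shifted sideways by genotype, and lines join the means of the log values of 3 libraries. RevDKO points for Cyp3a11 lie between 178.3 and 386.6 RPKTM at all times, while Por rises to its highest level at ZT16 in each genotype.

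The 2 RevScapTKO libraries that stand apart read 8405 RPKTM (ZT4) and 6693 (ZT10) for Cyp3a11, while the other 10 read 385.5 to 2457. The same libraries read 198.8 and 250.3 for Cyp3a59 against 22.3 to 167.4 in the others. Of 12 other PXR and CAR targets, 5 (Cyp2c55, Abcb1a, Slco1a4, Ugt1a1 and Gsta1) were above all 10 other libraries in both, 5 in only 1 of them and 2 in neither. Of these 2, Cyp2c29 lay below the median of the others in both, at log2 differences of -1.78 and -1.01. Por, Cyp3a13, Nr1i2 and Nr1i3 were above all others in neither. Their Scap values were 174.6 and 82.8 RPKTM, against 158.0 to 298.7 in the other 10. Both libraries carry the replicate number 2, and the LM libraries with the same number and times were also high: Cyp3a11 was 322.2 and 148.4 against 10.5 to 244.3 in the others, Cyp3a25 296.1 and 305.1 against 94.7 to 241.9, and Cyp3a59 35.7 and 26.4 against 1.12 to 10.5. Without both, hepatocyte Cyp3a11 was 2.95-fold higher in RevScapTKO than in RevDKO (1.56 ± 0.26, limma adjusted p = 0.000100), and RevScapTKO minus Control was -0.58 ± 0.26 (adjusted p = 0.0965). With the mean log2 level of macrophage markers as a covariate, the RevScapTKO minus RevDKO difference was 1.71 ± 0.55 and no longer passed (adjusted p = 0.108), while RevDKO minus Control stayed at -2.16 (adjusted p = 0.000399).

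**Figure D2:**
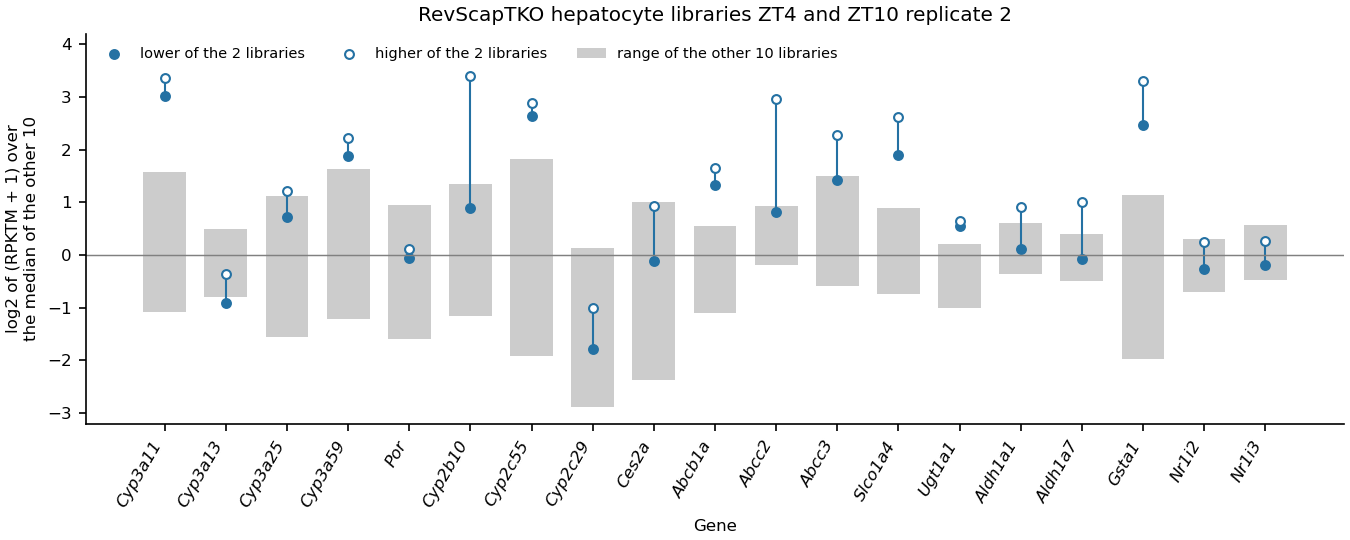
Log2 level over the median of the other 10 RevScapTKO hepatocyte libraries for the 2 libraries at ZT4 and ZT10, replicate 2. Filled and open points mark the lower and the higher of the 2, and grey bands span the range of the other 10. Cyp3a11 and Cyp3a59 stand above all others in both, as do 5 of 12 other PXR and CAR targets, while Cyp2c29 of the same 12 lies below the median in both.

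Cyp3a13, a P450 of the family that is expressed in intestine as well as liver, fell stepwise with genotype. It ranged from 504.4 to 1178 RPKTM in Control hepatocytes with a median of 821.8, from 337.6 to 622.4 in RevDKO with a median of 504.2, and from 179.1 to 472.2 in RevScapTKO with a median of 315.6. All 12 RevScapTKO libraries lay below all 12 Control libraries. RevDKO libraries lay below every Control library at 4 of 4 time points. At ZT4 they read 360.8, 394.0 and 337.6 against 504.4, 708.3 and 802.9. The share of all genes that part in these ways, at a time point or over all libraries, was not counted. Tested singly, only ZT4 passed (limma adjusted p = 0.0439, and at least 0.192 at the other time points). RevDKO was 1.61-fold lower than Control (-0.69 ± 0.10, limma adjusted p = 2.57e-05), RevScapTKO 1.64-fold lower than RevDKO (-0.72 ± 0.10, adjusted p = 5.81e-06), and RevScapTKO lower than Control by more (-1.41 ± 0.10, adjusted p = 2.73e-12). Cyp3a13 thus moved the opposite way to Cyp3a11 between RevDKO and RevScapTKO. Without both libraries that stand apart the last 2 differences were -0.64 (adjusted p = 3.68e-05) and -1.33, and with the macrophage covariate they were -0.65 (adjusted p = 0.00716) and -1.34 (adjusted p = 1.04e-07). No 50-base window of this transcript is shared with another member.

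Cyp3a25, a constitutive liver form, had the highest median of the members in Control, RevDKO and RevScapTKO hepatocytes alike. Control libraries ranged from 1200 to 3578 RPKTM (median 1844), RevDKO libraries from 1598 to 3493 (median 2340) and RevScapTKO libraries from 628.5 to 4273 (median 2193). The genotypes overlapped widely, and no difference passed (limma adjusted p = 0.449, 0.303 and 0.909 for 0.30, -0.27 and 0.03, each ± 0.19 SE), nor without both libraries that stand apart (-0.40 and -0.10 for RevScapTKO minus RevDKO and minus Control, adjusted p = 0.120 and 0.718). Its near copy Cyp3a59 was low, with medians of 45.1, 72.8 and 69.2 RPKTM in the 3 genotypes. RevDKO minus Control was 0.93 ± 0.30 (adjusted p = 0.0727), and RevScapTKO was 1.88-fold higher than Control (0.91 ± 0.30, adjusted p = 0.0180). That call was lost without both libraries that stand apart (0.62 ± 0.28, adjusted p = 0.0964) and with the macrophage covariate (0.76, adjusted p = 0.366). RevDKO libraries lay above all Control libraries at 2 of 4 time points for Cyp3a59 and at 1 for Cyp3a25. The share of all genes that do so was not counted. Neither gene passed at any single time point (lowest limma adjusted p = 0.403 for Cyp3a59 and 0.779 for Cyp3a25, both at ZT22).

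The make-up of the family differed between genotypes. Summed over the Cyp3a genes, hepatocyte levels had medians of 4492, 3277 and 3733 RPKTM for Control, RevDKO and RevScapTKO, and no comparison of the sum passed over all libraries (limma adjusted p = 0.350 for RevDKO minus Control at -0.41, 0.374 for RevScapTKO minus RevDKO at 0.27, and 0.653 for RevScapTKO minus Control at -0.14). The libraries that stand apart decided the last 2 values: their sums were 13064 and 10263 RPKTM, against 1880 to 5172 in the other 10. Without both, RevScapTKO minus RevDKO was -0.042 ± 0.15 (limma adjusted p = 0.878) and RevScapTKO minus Control -0.45 ± 0.15, which passed (adjusted p = 0.0252). Cyp3a11 made up 5.76 to 68.8% of the sum in Control, with a median of 33.2%. It made up 5.48 to 13.6% in RevDKO (median 9.81%) and 12.5 to 65.2% in RevScapTKO (median 35.2%; without both libraries that stand apart 12.5 to 47.7%, median 30.5%). The median share of Cyp3a25 was 46.0% for Control, 73.9% for RevDKO and 51.7% for RevScapTKO. The share of Cyp3a13 was alike in Control and RevDKO, at medians of 17.0% and 17.3%, and 8.90% in RevScapTKO. Shares add to a fixed total, so a lower share of Cyp3a11 raises the others.

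**Figure D3:**
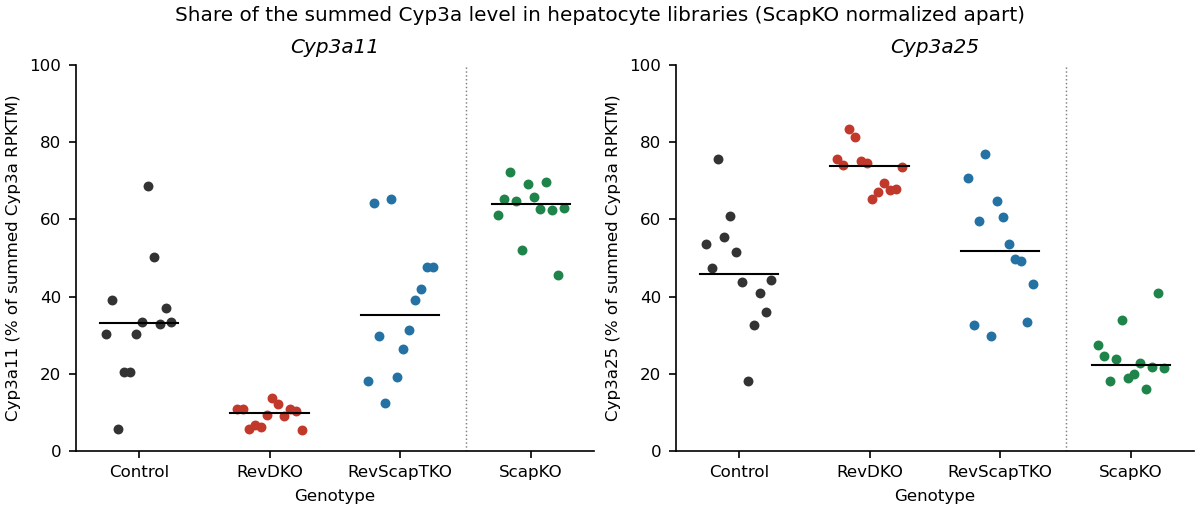
Share of the summed Cyp3a RPKTM taken by Cyp3a11 and by Cyp3a25 in each hepatocyte library, in percent, by genotype; lines mark medians. All 12 RevDKO libraries hold Cyp3a11 at or below 13.6%, and the ScapKO libraries, from a table normalized separately, hold it at 45.7% or more.

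Cyp3a16, Cyp3a41a and Cyp3a44, members known for expression in young or female livers, were near the bottom of the scale in these males. Over the 36 hepatocyte libraries of Control, RevDKO and RevScapTKO their highest values were 2.27, 3.37 and 1.37 RPKTM. Cyp3a16 was listed at 0 in 5, 12 and 5 of 12 libraries of these genotypes and Cyp3a44 in 7, 9 and 8, while Cyp3a41a was above 0 in every library. None reached 5 RPKTM in any of these 36 libraries, so none entered the tests on them. Such low values cannot be told apart from shared reads of Cyp3a11.

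Por showed a daily swing that was present in every genotype. In Control hepatocytes it read 452.2, 991.5 and 849.4 RPKTM at ZT4, 1565, 1468 and 1832 at ZT10, 2274, 3310 and 2357 at ZT16, and 1458, 1714 and 769.1 at ZT22. In RevDKO it read 595.7, 413.2 and 593.0, then 660.7, 898.9 and 1106, then 2241, 1865 and 1948, then 1383, 1237 and 700.4. RevScapTKO libraries read 486.2, 991.5 and 341.2, then 1158, 1113 and 1008, then 1540, 1978 and 1398, then 660.7, 738.6 and 1050. ZT16 held the highest values in all 3 genotypes, and both knockouts lay below every Control library at ZT10 and ZT16. Tested singly at these time points, neither knockout passed against Control (lowest limma adjusted p = 0.276, RevScapTKO at ZT16). The number of all genes parting in this way was not counted. The mean level was lower in RevScapTKO than in Control (log2 difference -0.57 ± 0.16, limma adjusted p = 0.00644), also without both libraries that stand apart (-0.68 ± 0.15, adjusted p = 0.00132). With the macrophage covariate it was -0.67 and did not pass (adjusted p = 0.0897). RevDKO minus Control was -0.49 ± 0.16 (adjusted p = 0.0830) and RevScapTKO minus RevDKO -0.08 ± 0.16 (adjusted p = 0.736).

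Counted together, 5 of the 8 genes were tested in hepatocytes, and every count is read against all 13326 genes. Between RevDKO and Control 2 fell (Cyp3a11 and Cyp3a13), where 2.43% of all genes did, and 0 rose by limma, where 2% of all genes did. At an unadjusted p under 0.05, 1 was higher in RevDKO (Cyp3a59) and Por was among 3 that were lower, where 2242 of all genes (16.8%) had such a p in either direction. Between RevScapTKO and RevDKO 1 rose (Cyp3a11; 13.5% of all genes) and 1 fell (Cyp3a13; 12.7%). Between RevScapTKO and Control 1 rose (Cyp3a59; 17.3%) and 2 fell (Cyp3a13 and Por; 18.7%). With so many genes called between RevScapTKO and the others, counts of 1 or 2 members are near that background.

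**Figure D4:**
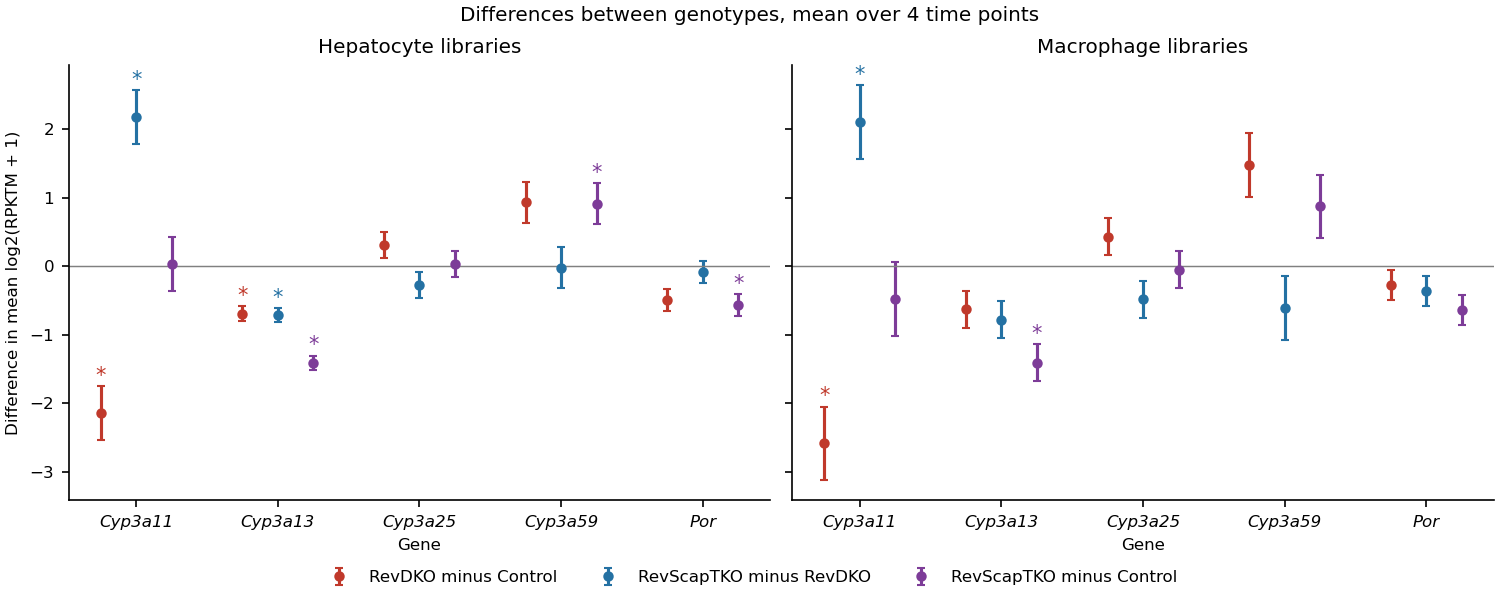
Log2 differences in mean level over the 4 time points from limma, ± SE, for the 5 tested genes in hepatocytes and in liver macrophages; an asterisk marks an adjusted p under 0.05. Cyp3a11 is low in RevDKO and high in RevScapTKO against RevDKO in both cell types, and Cyp3a13 is lowest in RevScapTKO.

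Whether the daily pattern differed between genotypes was tested with limma on the difference in the 24-hour cosine and sine terms. A difference outside these terms was not tested. In hepatocytes no member passed for RevDKO against Control (lowest adjusted p = 0.9999), where 0.203% of all genes passed and 654 had an unadjusted p under 0.05, nor for RevScapTKO against RevDKO (lowest adjusted p = 0.946), a comparison in which 0% of all genes passed and 674 had an unadjusted p under 0.05. In these terms the size of the Cyp3a11 difference was not shown to depend on the time of day. Rhythm within a genotype was called with JTK, a rank test for periodic series, at a period of 24 hours, p under 0.05 and a ratio of highest to lowest time-point mean above 1.5. The p-values come from a null distribution computed exactly for ordered groups of independent values, and were adjusted over the patterns tried. The patterns tie some time points, and libraries entered again are not independent. The word exact therefore names this computation and not an exact error rate. The 12 libraries were entered 2 times in a row, as in the methods of the study, which makes p-values smaller. Por was rhythmic with a fitted peak at ZT16 in Control (exact JTK p = 9.16e-05, ratio 3.46), in RevDKO (p = 7.13e-06, ratio 3.78) and in RevScapTKO (p = 9.16e-05, ratio 2.70). With the libraries entered once it still passed in each, at exact p = 0.0185, 0.00485 and 0.0185. Cyp3a13 was called in RevDKO (exact JTK p = 0.0447, ratio 1.7) and RevScapTKO (p = 0.0447, ratio 1.9), with a fitted peak at ZT16 in both, although its highest time-point mean was at ZT22 in RevDKO (608.7 RPKTM, against 539.5 at ZT16) and at ZT10 in RevScapTKO (368.1, against 351.9 at ZT16). When entered once it passed in neither (exact JTK p = 0.448). The counts were thus 1 of 5 in Control, where 20.8% of genes were called, 2 of 5 in RevDKO (20.5%) and 2 of 5 in RevScapTKO (12%). Cyp3a11 had a ratio of 2.97 in Control (exact JTK p = 0.150) and of 1.17 in RevDKO (p = 1.0). Without both libraries that stand apart it was called in RevScapTKO with its peak at ZT22 (exact JTK p = 0.0145, ratio 3.09), Cyp3a13 was not (p = 0.665), and Por was (p = 8.60e-05).

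Genes of electron transfer, heme synthesis and transcriptional control were described from lists chosen by function. Whether each listed protein serves CYP3A was not examined. Of 7 electron transfer partners, 0 passed between RevDKO and Control in hepatocytes (1 at an unadjusted p under 0.05); the smallest adjusted p was that of Pgrmc1, a heme-binding P450 partner (-0.41 ± 0.14, limma adjusted p = 0.0972). Between RevScapTKO and RevDKO 3 fell, namely Cyb5b (-1.02 ± 0.14, limma adjusted p = 1.53e-06), Cyb5r3 (-0.51 ± 0.10, adjusted p = 0.000341) and Pgrmc2 (-0.49 ± 0.15, adjusted p = 0.0147). The first 2 encode a cytochrome b5 and a cytochrome b5 reductase, and Cyb5a was not among the 3. Electron supply to CYP3A was not tested. Against Control, 4 were lower in RevScapTKO, these 3 and Cyb5a (-0.57 ± 0.22, adjusted p = 0.0419). The list's median was -0.20, -0.21 and -0.36 in the 3 comparisons, against -0.01, -0.03 and -0.04 over all genes. With both libraries that stand apart left out, 1 rose and 2 fell against RevDKO, with Cyb5b at -1.09 and Pgrmc2 no longer passing (-0.35, adjusted p = 0.0781), and 3 fell against Control, Cyb5a no longer among them (adjusted p = 0.0566).

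Of 8 enzymes of heme synthesis, 2 rose and 2 fell in RevDKO hepatocytes: Uros (0.73 ± 0.13, limma adjusted p = 0.000497) and Ppox (0.36 ± 0.09, adjusted p = 0.0130) against Alad (-0.48 ± 0.13, adjusted p = 0.0253) and Cpox (-0.37 ± 0.10, adjusted p = 0.0339). The rate-limiting enzyme Alas1 was higher in RevScapTKO than in RevDKO (1.06 ± 0.23, adjusted p = 0.00124), while Urod (-0.31 ± 0.11, adjusted p = 0.0303) was lower. Against Control, 3 were higher and 4 lower in RevScapTKO. The medians were -0.19, -0.05 and -0.34. Leaving out both libraries that stand apart, Alas1 was the only enzyme called against RevDKO (0.97 ± 0.24, adjusted p = 0.00566; Urod -0.26, adjusted p = 0.102), and 3 were higher and 4 lower against Control.

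Among 10 transcription factors of xenobiotic and liver gene control, 2 fell in RevDKO, namely Nr1i3, which encodes CAR (-0.40 ± 0.11, limma adjusted p = 0.0209), and Cebpb (-0.60 ± 0.16, adjusted p = 0.0273); Nr1i2, which encodes PXR, was not among them. Cebpa fell between RevDKO and RevScapTKO (-0.41 ± 0.11, adjusted p = 0.00602). Against Control 4 were lower in RevScapTKO: Cebpa (-0.72 ± 0.11, adjusted p = 8.05e-06), Cebpb (-0.75 ± 0.16, adjusted p = 0.000648), Nr1i3 (-0.37 ± 0.11, adjusted p = 0.00684) and Foxa2 (-0.56 ± 0.21, adjusted p = 0.0395). The medians were -0.17, 0.03 and -0.09. Cebpa passed, without both libraries that stand apart, in both RevScapTKO comparisons (-0.32 and -0.63, adjusted p = 0.0293 and 4.63e-05), and Foxa2 did not pass (-0.45, adjusted p = 0.131). Of the 4 clock-controlled D-box factors (Dbp, Hlf, Tef and the repressor Nfil3), 1 rose in RevDKO, Nfil3 (2.48-fold, adjusted p = 1.19e-08), and 1 fell between RevDKO and RevScapTKO, Hlf (-0.43 ± 0.11, adjusted p = 0.00381). Both were also called against Control in RevScapTKO, with and without the libraries that stand apart, and the medians were 0.36, -0.12 and 0.29.

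Other PXR and CAR targets did not follow Cyp3a11 as a group. Of 12, 2 rose and 4 fell in RevDKO hepatocytes: the transporter Slco1a4 (1.28 ± 0.26, limma adjusted p = 0.00168) and Cyp2c55 (1.39 ± 0.36, adjusted p = 0.0176) rose, and among those that fell were the bilirubin-conjugating Ugt1a1 (-0.55 ± 0.10, adjusted p = 0.000668) and the efflux pump Abcb1a (-1.19 ± 0.30, adjusted p = 0.0159). Between RevScapTKO and RevDKO 4 rose and 3 fell, with Gsta1 (2.15 ± 0.40, adjusted p = 0.000220; its median was 0 RPKTM in RevDKO and 3.49 in RevScapTKO), Abcc3 (0.93 ± 0.24, adjusted p = 0.00471), Abcc2 (0.72 ± 0.19, adjusted p = 0.00571) and Abcb1a (1.09 ± 0.30, adjusted p = 0.00907) among the higher. Against Control 4 were higher and 5 lower in RevScapTKO. The medians were -0.22, 0.04 and -0.22. When both libraries that stand apart were left out, 3 rose and 3 fell against RevDKO and the median was -0.22: Gsta1 (1.64 ± 0.34, adjusted p = 0.00103), Abcc3 (0.64 ± 0.21, adjusted p = 0.0276) and Abcc2 (0.45 ± 0.12, adjusted p = 0.0103) passed, and Abcb1a did not (0.80 ± 0.29, adjusted p = 0.0525). Against Control 4 were then higher and 4 lower. 

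In the separately normalized ScapKO hepatocyte libraries Cyp3a11 was high throughout. It read 4828, 7757 and 6767 RPKTM at ZT4, 6214, 4381 and 6316 at ZT10, 8964, 5846 and 7634 at ZT16, and 4874, 5881 and 5846 at ZT22. Its share of the summed Cyp3a level was 45.7 to 72.2% with a median of 63.9%, and the sum had a median of 9349. Cyp3a13 ranged from 834.9 to 1886 with a median of 1158, Cyp3a25 from 1696 to 5275 (median 2145) and Cyp3a59 from 24.1 to 80.3 (median 40.7). Por again peaked at ZT16, with 3421, 4007 and 3371 RPKTM against 1441, 2482 and 1581 at ZT4. JTK called 2 of the tested members rhythmic, Cyp3a13 (exact p = 0.00480, ratio 1.68) and Por (p = 0.0226, ratio 2.38), where 12.9% of genes were called; entered once, neither passed (p = 0.142 and 0.0697). A Control normalized together with these libraries was not analysed here, so no difference from Control is given.

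Some of these libraries stood apart. The library labelled ScapKO at ZT22, replicate 2, held Scap at 1006 RPKTM against 204.8 to 379.6 in the other 11, Cyp3a25 at 5275 against 1696 to 2922, and Scd1, a SREBP target, at 75737 against 189.7 to 2932. Replicate 3 at ZT16 held Cyp3a16 at 21.3 RPKTM (others at most 0.233), Cyp3a41a at 10.4 (at most 1.53) and Cyp3a44 at 11.3 (at most 6.94). The same library held Xist at 129.7 RPKTM against at most 15.0 in the others, while Ddx3y was between 376.8 and 655.2 in all 12. The part of either in the members' values was not tested.

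In liver macrophages the same genes were measured at far lower levels than in hepatocytes, and hepatocyte markers were present in all of these libraries. Their summed hepatocyte markers had medians of 107688 RPKTM for Control (67276 to 2425480), 100987 for RevDKO (64438 to 135405) and 117523 for RevScapTKO (43344 to 1623090), and their summed macrophage markers medians of 20225, 10263 and 11050. Cyp3a11 read 53.5, 67.8 and 18.4 RPKTM at ZT4 in Control, 25.5, 53.7 and 67.2 at ZT10, 91.9, 462.0 and 339.2 at ZT16, and 103.2, 125.2 and 382.2 at ZT22, with a median of 79.9. In RevDKO it ranged from 0 to 94.9 with a median of 20.4 and was listed at 0 in 2 libraries, and in RevScapTKO from 10.5 to 322.2 with a median of 54.7. The order of the medians was that of the hepatocyte libraries, and the groups overlapped.

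Cyp3a11 was 6.01-fold lower in RevDKO than in Control LMs (-2.59 ± 0.54, limma adjusted p = 0.0125), the only member called; 0.172% of all 13947 genes fell and 0.402% rose. It was 4.31-fold higher in RevScapTKO than in RevDKO (2.11 ± 0.54, adjusted p = 0.0218), again the only call, where 1.23% of genes rose and 1.78% fell. Both calls rested on the treatment of low values: with a pseudocount of 0.1 the adjusted p was 0.0692 and 0.0604, and without the filter on low values 0.0962 and 0.0821. Without both RevScapTKO libraries that stand apart the second difference was 1.56 ± 0.51 (adjusted p = 0.132). Both passed with the hepatocyte marker level as a covariate (limma adjusted p = 0.00666 and 0.00969). That covariate follows the amount of hepatocyte RNA and not its Cyp3a11 content, which itself differed between genotypes. The fit therefore cannot tell Cyp3a11 of macrophages from Cyp3a11 of hepatocyte RNA in these libraries, and the source was not tested. RevScapTKO minus Control was -0.48 (adjusted p = 0.662).

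Cyp3a13 in LMs ranged from 47.8 to 268.9 RPKTM across Control libraries (median 70.0), from 5.25 to 229.5 across RevDKO (median 65.7) and from 11.2 to 74.3 across RevScapTKO (median 30.3). It was 2.66-fold lower in RevScapTKO than in Control (-1.41 ± 0.27, limma adjusted p = 0.00109; -1.43 without both libraries that stand apart, adjusted p = 0.00259), the only member called there, where 1.38% of genes fell and 2.38% rose. The other members passed in no LM comparison. Cyp3a25 had medians of 174.0, 192.0 and 144.9 RPKTM, Cyp3a59 of 3.01, 13.4 and 5.70, and Por of 303.7, 210.4 and 184.7. Cyp3a59 differed by 1.48 ± 0.46 between RevDKO and Control (adjusted p = 0.153) and Por by -0.64 ± 0.22 between RevScapTKO and Control (adjusted p = 0.101). Cyp3a16 and Cyp3a44 stayed at or below 0.87 RPKTM and Cyp3a41a at or below 4.26.

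No member changed its daily pattern between genotypes in LMs by limma, where 0% of genes passed in either comparison (767 and 498 genes had an unadjusted p under 0.05; lowest adjusted p among the members 0.891 and 0.998). JTK called 1 member in each genotype: Cyp3a11 in Control (exact p = 0.0226, ratio 6.39, fitted peak at ZT16; 11.2% of genes called), Por in RevDKO (p = 0.0226, ratio 2.26, ZT16; 16.1%) and Cyp3a13 in RevScapTKO (p = 0.0226, ratio 2.59, ZT22; 8.57%). None of these passed with the libraries entered once. Without both libraries that stand apart, Cyp3a11 (exact JTK p = 0.000396), Cyp3a13 (p = 0.00502) and Por (p = 0.0145) were called in RevScapTKO.

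ScapKO LM libraries, again a table of their own, held Cyp3a11 between 146.8 and 1642 RPKTM with a median of 293.1. Replicate 2 at ZT4 and at ZT22 read 1642 and 1529, and the other 10 read 146.8 to 473.1. These 2 libraries were also highest in Cyp3a13 (177.0 and 409.9, others at most 73.6), in Cyp3a25 (797.7 and 1747, others at most 308.0) and in Por (944.9 and 1374, others at most 515.2). Their Adgre1, a macrophage marker, read 4871 and 1371 RPKTM against at least 6109 in the others. JTK called 1 member, Cyp3a13 with a fitted peak at ZT22 (exact p = 0.00480, ratio 9.20; 13.3% of genes called), and it was also called without both libraries (p = 0.0145, ratio 2.88).

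**Figure D5:**
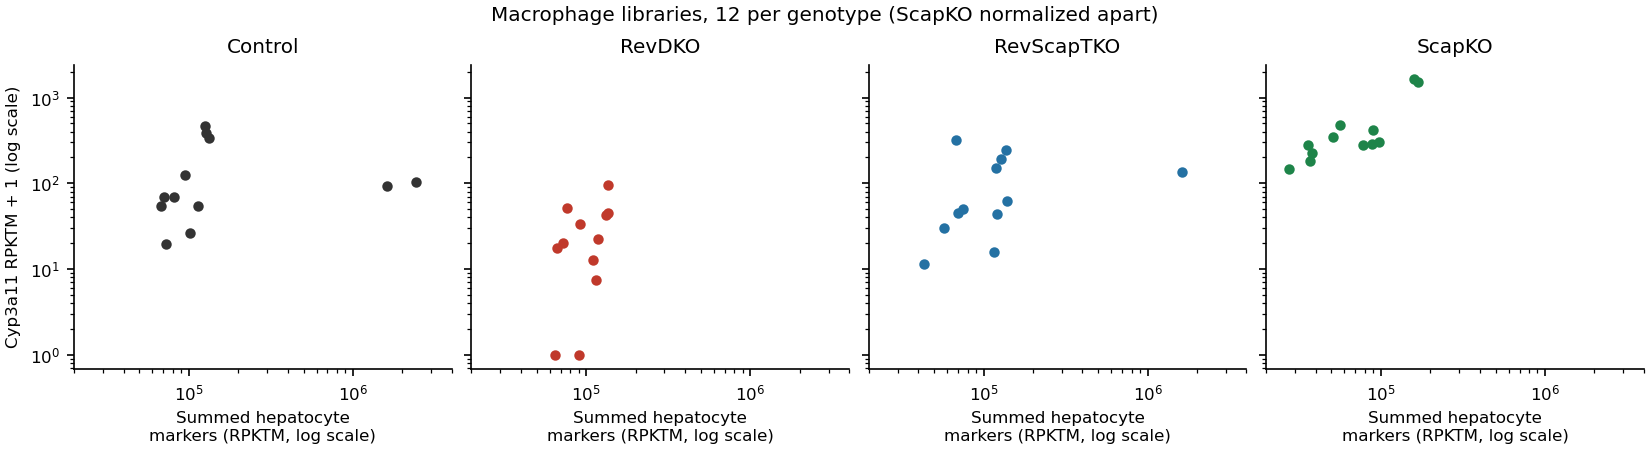
Cyp3a11 against the summed level of 14 hepatocyte markers in each liver macrophage library, in RPKTM + 1 and RPKTM on log axes, by genotype. The 2 ScapKO libraries with the highest Cyp3a11 also hold the highest hepatocyte marker sums of that genotype, and in Control and RevScapTKO 2 libraries and 1 library lie far to the right of the others.

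The relation of Cyp3a11 and Por to the hepatocyte marker sum was computed within each genotype over 12 LM libraries, 8 relations in all. For ScapKO it was r = 0.842 for Cyp3a11 (permutation p = 0.000370, Benjamini-Hochberg adjusted p = 0.00296; Spearman's rho 0.790, adjusted p = 0.0252) and r = 0.780 for Por (adjusted permutation p = 0.00576; rho 0.664, adjusted p = 0.0876). Without the 2 libraries farthest from the median marker sum the values were 0.646 and 0.469 (adjusted permutation p = 0.178 and 0.448, unadjusted permutation p = 0.0445 and 0.168). Neither relation then passed after adjustment, with fewer libraries and a narrower range of marker sums. The other 6 relations had r between -0.255 and 0.455, with adjusted permutation p of at least 0.352. Among them the Control value for Cyp3a11 went from 0.156 to 0.706 (adjusted permutation p = 0.178) without ZT16 and ZT22 replicate 1, whose marker sums lay far above the rest. With albumin (Alb), the most abundant marker, left out of the sum, rho for Cyp3a11 was 0.820 in RevDKO (adjusted permutation p = 0.0122) and 0.685 in Control (adjusted permutation p = 0.0449), and rho for Por in RevScapTKO was 0.643 (adjusted permutation p = 0.0450), while Pearson's r of these 3 relations was 0.502, 0.170 and 0.481 and did not pass (adjusted permutation p = 0.201, 0.628 and 0.205).

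The genes whose 12 hepatocyte group means ran most like those of Cyp3a11, among 13325 others, were Cfb (r = 0.899), Ubash3b (0.898), Gpat3 (0.895), Abhd2 (0.888) and Jpt1 (0.885). Without both libraries that stand apart they were Tcirg1 (0.913), Lix1l (0.892), Abhd2 (0.881), Atp9a (0.878) and Isyna1 (0.860), so 1 of 5 was shared. Most like Por were Gpt2 (r = 0.952), Klhl13 (0.932), Abhd8 (0.925), Vps13a (0.923) and Atl2 (0.922), and none of these was among the 5 found without both libraries. Between members r was 0.243 for Cyp3a11 and Por, 0.593 for Por and Cyp3a13, and -0.494 for Cyp3a11 and Cyp3a25. These r describe 12 means that share libraries and carry no test.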

How the data were processed

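Hepatocyte and liver macrophage RNA-Seq libraries were grouped by the labels into 32 groups of 3. Per the paper's methods the authors removed ribosomal RNA and made stranded libraries; the submitters' processing notes name STAR, HOMER and the build mm9, with versions not given in the sources used here, nor read length, the handling of reads matching several genes or the use of strand in counting. The deposited values are an RPKM multiplied by 10 (RPKTM), quantile normalized by the authors: within each of 4 tables (42322 transcripts, 25095 symbols) all libraries held the same sorted values. Depth is therefore unknown, no interval from counts is given, and precision rests on the spread between libraries; the labels number the replicates without naming mice, so p-values measure only the spread between these libraries, which may be technical. Bracketed numbers in the column names were not used. All columns were mapped (0 without a sample), and no libraries were identical (pairwise r 0.947 to 0.99 in hepatocytes, 0.833 to 0.982 in macrophages). A single top value took 10.8% of each hepatocyte column and 27.5% of each macrophage column.

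Values were tested as log2(RPKTM + 1) with limma 3.58.1 in R 4.3.3, with trend, on 36 libraries and 12 genotype-by-time means per cell type, for genes over 5 RPKTM in at least 3 libraries (13326 and 13947 genes), with Benjamini-Hochberg adjustment over all genes and a threshold of 0.05. Fold changes on this scale understate the change of low genes. JTK was written in Python 3.11.15, with scipy 1.17.1, numpy 2.4.6 and pandas 2.3.3 (figures: matplotlib 3.10.9), and run per genotype. Correlations used 100000 permutations. The tests were tried on simulated data first. Coding sequence came from GENCODE vM1 and promoters from mm9.

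All 8 members were named, with at most 4 called genes per list by adjusted p and the 5 most similar genes for Cyp3a11 and Por. A result that this rule would name is not reported here. The members and lists were chosen with earlier results of these data known. Alternatives were another pseudocount, the filter, the transcript choice, the genotypes in the fit, a replicate block, a score of the other cell type, each library left out and, chosen after seeing the data, leaving out libraries that stand apart. Replicate numbers were not taken to pair libraries, since the labels name no mice. Same-numbered libraries had a median r of deviations of 0.0484 in hepatocytes and 0.0877 in macrophages, over 0.1 in 13 and 15 of 36 pairs. Other-numbered libraries had medians of -0.029 and -0.046, over 0.1 in 7 of 72 pairs in each cell type. Same-numbered libraries were thus somewhat more alike, and the replicate block was run as an alternative for this.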

Additional observations from a re-analysis of the deposited data

How the results depend on the processing

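The counts of members called were recomputed under 453 alternatives; 379 stayed within the limits set, 52 fell below and 22 rose above. In hepatocytes the score of macrophage markers as a covariate left 1 member called between RevScapTKO and RevDKO and 1 between RevScapTKO and Control, where 2 and 3 were called. In macrophages a pseudocount of 0.1 and no filter each left 0 members both in the RevDKO minus Control and in the RevScapTKO minus RevDKO comparison (0 and 0), and the latter also had 0 with only the 2 genotypes compared in the fit (Cyp3a11 adjusted p = 0.0505) and 0 without both libraries that stand apart, where limma had called 1. Leaving out 1 library at a time gave 1 to 2 members for RevDKO minus Control (2 without Control ZT22 replicate 3), 0 to 2 for RevScapTKO minus RevDKO (0 without RevScapTKO ZT4 or ZT10 replicate 2, 2 without RevDKO ZT16 replicate 1) and 1 to 2 for RevScapTKO minus Control (2 without Control ZT22 replicate 1). The difference of the summed Cyp3a genes between RevScapTKO and RevDKO macrophages was -0.19 (adjusted p = 0.786), of opposite sign to Cyp3a11, and -0.48 without both libraries that stand apart (adjusted p = 0.383); in hepatocytes without both it was -0.042 (adjusted p = 0.878), and -0.45 for RevScapTKO minus Control (adjusted p = 0.0252). The cause of these changes was not tested. With the replicate number as a replicate block, 2, 2 and 3 members were called in the hepatocyte comparisons and 1, 1 and 1 in macrophages, as without it; in 42 of 72 comparisons in either cell type (each of 36 libraries against the 3 of each other genotype at its time) the highest correlation was with the same number. No changed-rhythm call of a member moved in 630 alternatives.

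JTK calls depended on how the libraries were entered. Entered once, the counts for Control, RevDKO, RevScapTKO and ScapKO were 1, 1, 1 and 0 in hepatocytes and 0, 0, 0 and 0 in macrophages. With adjustment over genes they were 0 in all 8. A perfectly ordered 24 h pattern entered once reaches exact JTK p = 0.00485 at lowest, the value of Por in RevDKO hepatocytes. Adjustment over all genes could pass such a p only if a large share of genes reached it. These 0 counts therefore decide nothing about single genes. A ratio over 2 left 1 in RevDKO, 1 in RevScapTKO and 1 in ScapKO hepatocytes. A 24 h cosine regression gave 2, 3, 1 and 2 in hepatocytes of the 4 genotypes (with Cyp3a25 added in Control and RevDKO) and 2, 1, 1 and 0 in macrophages, where the call in RevDKO was Cyp3a13 in place of Por. Leaving out 1 library gave 1 to 2 in hepatocytes of each genotype, and 0 to 3, 0 to 2, 0 to 3 and 1 to 3 in macrophages; without both libraries that stand apart, RevScapTKO macrophages had 3. Of the 2 correlations with hepatocyte markers, 0 passed after adjustment without the 2 farthest libraries.

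Counts over all genes that moved more than 1.5 times, leaving out single libraries aside, were these. Hepatocyte RevDKO minus Control had 590 calls and 1086 with all transcripts. RevScapTKO minus RevDKO had 3498, 325 with the covariate and 6791 with all transcripts, and RevScapTKO minus Control had 4789, 780 and 9197. The fits of all transcripts tested 26235 transcripts in place of 13326 genes. Their shares called were 4.14%, 25.9% and 35.1%, against 4.43%, 26.2% and 35.9% of genes, so the shares hardly moved. Changed rhythm had 27 calls, and 47 with 2 genotypes in the fit. Macrophage RevDKO minus Control had 80 calls, 49 with a pseudocount of 0.1, 41 without the filter and 167 with the replicate block. RevScapTKO minus RevDKO had 419, 1259 with the covariate, 652 with all transcripts and 254 without both libraries. RevScapTKO minus Control had 524, 1220, 963 and 344, and 836 with the block. With all 27004 transcripts these 2 shares were 2.41% and 3.57%, against 3% and 3.76% of genes. Entered once, JTK called 341, 312 and 109 hepatocyte genes where it had called 2693, 2649 and 1538, and 68, 113 and 56 macrophage genes where it had called 1426, 2201 and 1075; for ScapKO it called 257 where it had called 1683, and 170 where it had called 1914. With adjustment over genes it called 0 everywhere, which the lowest p reachable with a single entry largely decides. A ratio over 2 left 1458, 1217, 715 and 763 genes in hepatocytes of the 4 genotypes, and 644 in RevScapTKO and 1182 in ScapKO macrophages. The cosine regression called 951 in RevScapTKO hepatocytes and 847, 1441, 690 and 978 in macrophages, and ScapKO macrophages had 989 without both libraries that stand apart. Without the filter, higher and lower hepatocyte calls went from 1800 and 1698 to 1699 and 2669 for RevScapTKO minus RevDKO, and from 2301 and 2488 to 2191 and 3340 for RevScapTKO minus Control. The unknown depth limits low members most.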

Other observations

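Genes that mark the poles of the liver lobule, where CYP3A is mainly pericentral, were also counted. Of 8 pericentral genes, 1 fell in RevDKO hepatocytes, the ammonia transporter Rhbg (-1.27 ± 0.25, limma adjusted p = 0.00126), while 2 of 8 periportal genes rose, Ass1 (0.49 ± 0.12, adjusted p = 0.0160) and Gls2 (0.53 ± 0.15, adjusted p = 0.0358). Between RevScapTKO and RevDKO 6 of 8 periportal genes fell and 1 rose; the urea cycle enzyme Ass1 (-0.86 ± 0.12, adjusted p = 7.42e-06), Sds (-1.72 ± 0.25, adjusted p = 8.49e-06), Aldh1b1 (-1.10 ± 0.16, adjusted p = 9.98e-06) and Hal (-1.14 ± 0.18, adjusted p = 3.08e-05) were among those that fell. Of the pericentral genes, 2 fell, Glul (-0.63 ± 0.13, adjusted p = 0.000484) and Cyp2e1 (-0.73 ± 0.18, adjusted p = 0.00263), and 1 rose, Cyp1a2 (0.55 ± 0.17, adjusted p = 0.0144). The periportal median was -0.89 against -0.03 over all genes. Without the RevScapTKO libraries at ZT4 and ZT10, replicate 2, 5 periportal genes fell and 1 rose, and Glul and Cyp2e1 fell, while Cyp1a2 did not pass (0.40, adjusted p = 0.0699). Against Control, 6 periportal genes were lower and 1 was higher in RevScapTKO, and 2 pericentral genes were lower. In macrophage libraries, which held hepatocyte RNA, 6 of 8 periportal and 3 of 8 pericentral genes were lower in RevScapTKO than in RevDKO, Cyp2e1 among them (-1.44 ± 0.21, adjusted p = 1.97e-05).

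Of the same lists in macrophage libraries, Nfil3 was the only gene of the transcription factor, heme, electron transfer and PXR or CAR target lists called between RevDKO and Control (1.79 ± 0.34, limma adjusted p = 0.00415). Between RevScapTKO and RevDKO Gsta1 rose (3.18-fold, log2 SE 0.31, adjusted p = 0.000837), and Cyp2c29 (-1.44 ± 0.26, adjusted p = 0.000744), Ces2a (-1.46 ± 0.30, adjusted p = 0.00264) and Cyb5b (-0.65 ± 0.17, adjusted p = 0.0319) fell. Against Control in RevScapTKO, Fdxr (0.83 ± 0.24, adjusted p = 0.0475), Alas1 (0.93 ± 0.24, adjusted p = 0.0218) and Nfil3 (2.82-fold, log2 SE 0.34, adjusted p = 0.00650) were higher, and of 11 tested PXR and CAR targets 1 was higher and 3 lower. With the 2 RevScapTKO macrophage libraries that stand apart left out, Cyp2c29, Ces2a and Cyb5b still passed against RevDKO and Nfil3 against Control, Fdxr (adjusted p = 0.103) and Alas1 (adjusted p = 0.0921) did not pass against Control, 2 targets were lower there, and Gsta1 was too low to be tested.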
